A study of Agaricus bisporus with 16 samples.

Results

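At the pinning stage of cultivation, mycelium of the button mushroom strain 245 AMA-7 growing in compost was compared with mycelium of strain A15. The comparison took all 4 libraries of these strains from day 27 after spawning, 2 of 245 AMA-7 and 2 of A15, out of 16 libraries in the series, and genes listed in the files of both strains. The groups used were 245 AMA-7 on day 27, strains 219 30P and 065 BP-8 on day 27, 245 AMA-7 on day 39, A15 on day 39 and A15 on day 27, each with 2 libraries. No treatment, mutation or other allele is given for any group. All strains grew on the same kind of commercial compost made from wheat straw and manure, were spawned with colonised wheat kernels and had been covered with casing soil before day 27. Day 27 is the pinning stage, when primordia form, and day 39 is the first flush of mushrooms. A15 is described in the series as the commercially cultivated strain, and the stated aim was to find strains that use compost components left by A15.

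The button mushroom, Agaricus bisporus, is a litter-decomposing basidiomycete. Its mycelium secretes laccases, copper enzymes that oxidise phenols with oxygen, and manganese peroxidase, a haem enzyme that makes a diffusible manganese oxidant, and both act on lignin in straw. Laccase activity in compost is known to be high while the mycelium colonises it and to fall when mushrooms develop. Pinning is the switch from vegetative growth to the formation of mushrooms.

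Values are FPKM, sequenced fragments relative to transcript length and to the library's mapped total, a unit inferred from the values. The 245 AMA-7 day 27 libraries summed to 837484 and 835758 FPKM, and the A15 day 27 libraries to 873509 and 858309 FPKM. Low values of the same genes put the relative depth of these 4 libraries between 0.964 and 1.057 of the first 245 AMA-7 library. Only ratios near 1 were kept for this estimate, so it could not have shown a large difference in depth. The files give no read counts, and no counting intervals could be made. Across the 9520 genes shared by both sets of files, Spearman correlations were 0.993 between the 245 AMA-7 libraries, 0.991 between the A15 libraries and 0.938 to 0.951 between libraries of different strains. Within 245 AMA-7 5.32% and within A15 6.43% of genes lay more than 1.5-fold apart, against 26.9% to 31.2% between the strains. The A15 files list 9520 genes and the 245 AMA-7 files 10438, and every gene in the A15 files has a value above 0 in at least 1 of the 4 A15 libraries. The tables thus differ in which genes they list, and where a difference touches values near 0, strain and table cannot be told apart.

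Differences are given as log2(FPKM + 1) of 245 AMA-7 minus A15, with the standard error (SE) of limma. A gene passed the test when its p-value, adjusted by the Benjamini-Hochberg method over the 8818 genes that averaged at least 1 FPKM in the whole series, was under 0.05. On day 27, 3493 of these genes passed (39.6%), with 1963 higher (22.3%) and 1530 lower (17.4%) in 245 AMA-7. The balance depended on scaling, with 1681 higher and 1817 lower after median-ratio scaling. At least 2-fold changes were seen in 455 genes that were higher (5.16%) and 560 that were lower (6.35%). Larger changes leaned to the lower side, with 77 genes higher and 163 lower by at least 4-fold, and 5 higher and 16 lower by at least 16-fold. The median difference of all genes was 0.06, the quartiles were -0.28 and 0.37, and the median SE was 0.15. With a pseudocount of 5 in place of 1, 229 genes were higher and 358 lower by at least 2-fold. The labels do not say whether the duplicates were taken from separate crates. The spread behind the p-values comes from the duplicates of all 8 groups of the series alone, other strains and day 39 included, and part of it may be technical.

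**Figure D1:**
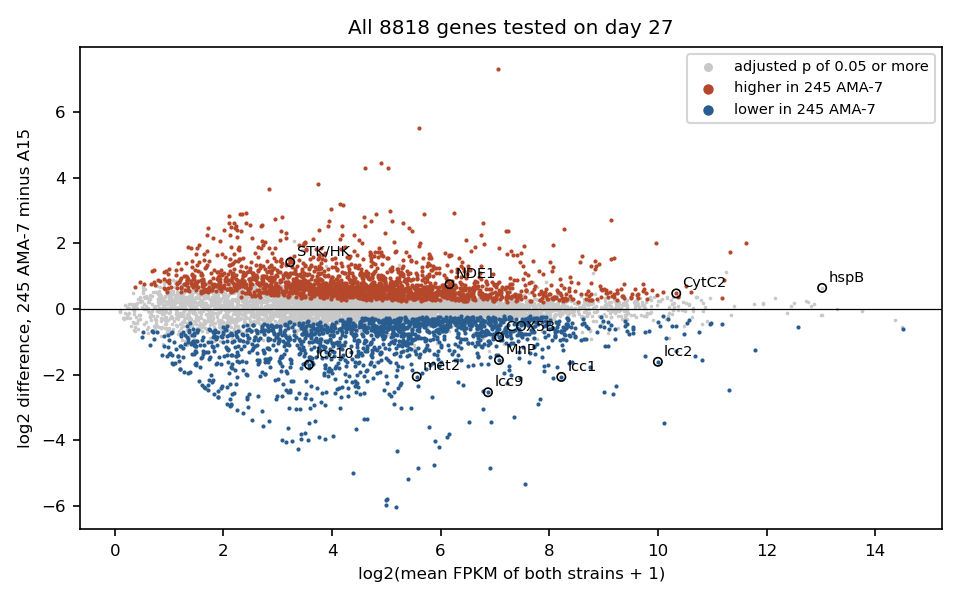
Each point is 1 of the 8818 genes tested. The x axis gives log2 of the mean FPKM of both strains plus 1, and the y axis the log2 difference of 245 AMA-7 minus A15 on day 27. Red genes passed as higher, blue genes as lower and grey genes did not pass. The 163 genes lower by 4-fold or more form the long lower edge, and the laccase genes lcc9, lcc1, lcc10 and lcc2 lie among the lower genes at moderate to high levels.

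Most genes with a symbol for lignin-directed oxidation were lower in 245 AMA-7. Of the 6 laccase genes with a symbol, 4 were lower (lcc9, lcc1, lcc10 and lcc2), 1 was higher (lcc3) and 1 did not pass (lcc12), where 17.4% of all genes were lower and 22.3% higher, and these counts were the same under median-ratio and quantile scaling. The median difference of the 6 was -1.65, against 0.06 over all genes tested. The manganese peroxidase gene MnP was lower as well. How the authors' counting divided reads between related laccase genes is not stated, so the level of each gene alone is uncertain. FPKM are relative to each library's total, and fewer mycelial cells that use a gene cannot be told apart from less RNA per cell.

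The largest difference among the laccases was in lcc9 (AGABI2DRAFT_194714), with 35.4 and 29.8 FPKM in the 245 AMA-7 libraries, against 152 and 247 FPKM in the A15 libraries. Both 245 AMA-7 libraries lay far under both A15 libraries, and the log2 difference was -2.54 ± 0.31 (adjusted p = 5.38e-05), a 5.81-fold difference on this scale. For lcc1 (AGABI2DRAFT_146228), which with lcc2 is known as a main laccase secreted into compost, the 245 AMA-7 libraries held 133 and 83.5 FPKM and the A15 libraries 294 and 680.1 FPKM. The groups did not overlap, but the A15 libraries themselves lay more than 2-fold apart, and the difference of -2.07 ± 0.40 (adjusted p = 0.00168) ranged from -2.68 to -1.47 when single libraries were left out. The most abundant laccase transcript, lcc2 (AGABI2DRAFT_139148), stood at 621 and 357 FPKM in 245 AMA-7 and 963 and 2151 FPKM in A15. Its difference was -1.61 ± 0.37 (adjusted p = 0.00432), and it no longer passed without replicate 2 of 245 AMA-7 (-1.21, adjusted p = 0.0531) or without replicate 2 of A15 (-1.03, adjusted p = 0.0555).

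Among the weaker laccase genes, lcc10 (AGABI2DRAFT_120944) had 5.03 and 3.98 FPKM in 245 AMA-7, against 12.8 and 21.9 FPKM in A15, a difference of -1.70 ± 0.29 (adjusted p = 0.000664). The opposite direction was seen in lcc3 (AGABI2DRAFT_184981), with 8.97 and 8.57 FPKM in 245 AMA-7 and 4.07 and 5.75 FPKM in A15. Its difference of 0.74 ± 0.18 (adjusted p = 0.00681) was 0.53 (adjusted p = 0.0656) without replicate 1 of A15. Not past the threshold was lcc12 (AGABI2DRAFT_184993), which had 9.25 and 7.81 FPKM in 245 AMA-7 and 5.37 and 23.98 FPKM in A15 (-0.41 ± 0.96, adjusted p = 0.765). The A15 duplicates lay on both sides of the 245 AMA-7 values, and the difference was -1.39 without replicate 1 of A15 and 0.58 without replicate 2 of A15 (adjusted p = 0.367 and 0.739 in the same order).

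MnP (AGABI2DRAFT_221245), the manganese peroxidase, stood at 79.7 and 51.4 FPKM in 245 AMA-7, against 135 and 269 FPKM in A15. The libraries did not overlap and the difference was -1.56 ± 0.35 (adjusted p = 0.00394), or -1.06 (adjusted p = 0.0526) without replicate 2 of A15. In lcc1, lcc2, lcc9, lcc10 and MnP alike, replicate 2 of A15 lay above replicate 1 and replicate 1 of 245 AMA-7 above replicate 2. The duplicates thus differed in the same sense across the lignin genes, which share a sample, and the genes are not independent pieces of evidence.

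**Figure D2:**
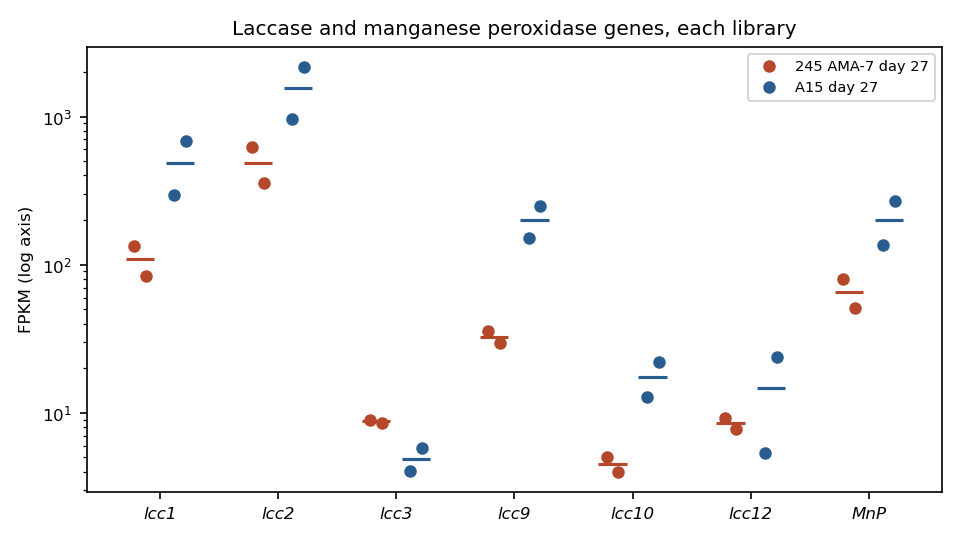
FPKM on a log axis of 6 laccase genes and MnP on day 27. Each point is 1 library, 245 AMA-7 in red on the left and A15 in blue on the right of each pair, and each bar is the mean of 2 libraries. For lcc1, lcc2, lcc9, lcc10 and MnP both 245 AMA-7 points lie under both A15 points, lcc3 is the other way round, and the lcc12 points of A15 lie on both sides of 245 AMA-7.

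The laccase and MnP levels of 245 AMA-7 were also set against those of the other strains on day 27. Against the mean of 219 30P and 065 BP-8, 4517 of 8818 genes differed in 245 AMA-7 (51.2%), 1955 higher and 2562 lower. This contrast uses the same 245 AMA-7 libraries as the one with A15 and is not independent of it. For lcc1 the 245 AMA-7 values above stood against 1871 and 774 FPKM in 219 30P and 1217 and 1073 FPKM in 065 BP-8, and the log2 difference of 245 AMA-7 from their mean was -3.46 ± 0.35 (adjusted p = 8.49e-06). The same test gave -2.12 ± 0.32 for lcc2 (adjusted p = 0.000171), with 3027 and 1676 FPKM in 219 30P and 1667 and 2091 FPKM in 065 BP-8, and -2.48 ± 0.30 for MnP (adjusted p = 3.67e-05), with 528 and 389.8 FPKM in 219 30P and 282 and 296 FPKM in 065 BP-8. In lcc1, lcc2 and MnP every library of the other 3 strains lay above both 245 AMA-7 libraries on day 27. The same held for lcc9 and lcc10, but by small margins to 065 BP-8. For lcc9 the higher 245 AMA-7 value was 35.4 FPKM, against 149 and 71.3 FPKM in 219 30P and 49.01 and 39.4 FPKM in 065 BP-8. For lcc10 it was 5.03 FPKM, against 14.7 and 7.97 FPKM in 219 30P and 8.24 and 5.15 FPKM in 065 BP-8. For lcc9 the contrast was -1.03 ± 0.27 (adjusted p = 0.0065) and for lcc10 -0.79 ± 0.25 (adjusted p = 0.0189). The lectin gene abl, a marker of fruiting-body tissue, moved with this contrast, with 22.1 and 21.3 FPKM in 245 AMA-7, 4.4 and 3.67 FPKM in 219 30P and 4.53 and 8.92 FPKM in 065 BP-8 (1.90 ± 0.31, adjusted p = 0.000335). The part of mushroom tissue in these differences was not tested.

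The lower laccase genes lie in 2 places of the reference gene order. The genes lcc9 and lcc10 are neighbours, and the gene next to lcc10, AGABI2DRAFT_194715, which has no symbol, had 6.01 and 8.24 FPKM in 245 AMA-7, against 189 and 276 FPKM in A15 (-4.83 ± 0.42, adjusted p = 4.25e-06). This is larger than the differences of lcc9 and lcc10, and it was among the 10 largest falls of genes at 10 FPKM or more in A15. On day 27 AGABI2DRAFT_194715 also lay under A15 in 219 30P, with 36.8 and 9.88 FPKM, and in 065 BP-8, with 2.6 and 3.36 FPKM. From their mean 245 AMA-7 did not differ past the threshold (limma, -0.16 ± 0.36, adjusted p = 0.743). The genes lcc1 and lcc2 are neighbours too, and next to them AGABI2DRAFT_211295 had 6.75 and 4.74 FPKM in 245 AMA-7 and 16.01 and 27.02 FPKM in A15 (-1.71 ± 0.38, adjusted p = 0.00386). This last gene was picked after its values were seen, and against the mean of 219 30P and 065 BP-8 it did not pass (limma, -0.62 ± 0.33, adjusted p = 0.137). Neighbours are taken from the order of the reference table, and a new scaffold was assumed wherever the start position fell. A scaffold end without such a fall would be missed, so some neighbours may lie on different scaffolds. No build is named in the sources used here, and no coordinates are printed.

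Other metabolic genes with a symbol were also lower. For met2 (AGABI2DRAFT_200636), in yeast the name of homoserine O-acetyltransferase, a step on the way to methionine, the 245 AMA-7 libraries had 21.3 and 13.8 FPKM and the A15 libraries 73.6 and 76.2 FPKM. The 245 AMA-7 libraries lay far under the A15 libraries, with a difference of -2.06 ± 0.30 (adjusted p = 0.000258). On day 27 met2 was also low in 219 30P, with 15.2 and 18.4 FPKM, and in 065 BP-8, with 7.82 and 7.26 FPKM. From their mean 245 AMA-7 did not differ past the threshold (limma, 0.56 ± 0.26, adjusted p = 0.0933). The other gene that the methionine list took in by symbol was hom2 (AGABI2DRAFT_192725), named in yeast for aspartate-semialdehyde dehydrogenase. It had 16.3 and 15.3 FPKM in 245 AMA-7, against 15.7 and 12.3 FPKM in A15 (adjusted p = 0.44), so that 1 of 2 genes of this list was lower.

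Phenylalanine ammonia-lyase takes ammonia from phenylalanine to give cinnamic acid, the entry to phenylpropanoids. PAL1 (AGABI2DRAFT_192776) had 229.7 and 223 FPKM in 245 AMA-7 and 349 and 434 FPKM in A15, a difference of -0.78 ± 0.16 (adjusted p = 0.00278) with no overlap. PAL2 (AGABI2DRAFT_192690) had 107 and 116 FPKM in 245 AMA-7, against 217 and 178 FPKM in A15 (-0.81 ± 0.22, adjusted p = 0.0123). The PAL2 call was lost without replicate 1 of 245 AMA-7 (-0.75, adjusted p = 0.0666) and without replicate 1 of A15 (-0.67, adjusted p = 0.085). The third gene of this list, C4H1 (AGABI2DRAFT_213259), named for cinnamate 4-hydroxylase, was barely detected, with 0.58 and 0.47 FPKM in 245 AMA-7 and 0.55 and 0.20 FPKM in A15. Against the mean of 219 30P and 065 BP-8 on day 27, PAL1 of 245 AMA-7 did not pass (limma, -0.02 ± 0.14, adjusted p = 0.911). PAL2 was lower in this contrast too (limma, -1.35 ± 0.19, adjusted p = 0.000115).

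Fet3 (AGABI2DRAFT_225781), in yeast the multicopper ferroxidase of high-affinity iron uptake, stood at 8.09 and 9.09 FPKM in 245 AMA-7 and 13.1 and 17.03 FPKM in A15, lower by a log2 difference of -0.73 ± 0.16 (adjusted p = 0.00327). PhrB (AGABI2DRAFT_190401), named for DNA photolyase, an enzyme that repairs ultraviolet damage with light, had 7.0 and 8.65 FPKM in 245 AMA-7 and 13.8 and 11.8 FPKM in A15 (-0.65 ± 0.14, adjusted p = 0.00356). Both were lower in each library of 245 AMA-7 than in each library of A15. Against the mean of 219 30P and 065 BP-8 on day 27, neither gene of 245 AMA-7 passed. The limma contrast was -0.34 ± 0.14 for Fet3 (adjusted p = 0.0593) and 0.25 ± 0.12 for PhrB (adjusted p = 0.114).

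The respiratory chain as a whole showed no common shift. It passes electrons through complexes I to IV to oxygen, and ATP synthase uses the resulting proton gradient. Of the 49 subunit genes found by symbol, 5 were higher, 7 were lower and 37 did not pass, so that 24.5% passed, against 39.6% of all genes tested. Their median difference was 0.00, against 0.06 over all genes, and it was -0.06 with median-ratio scaling, where 2 were higher and 9 lower, and -0.00 with quantile normalization. By complex, 3 of 23 genes were higher and 3 lower in complex I, none of 5 passed in complex II, 1 of 6 was higher and 1 lower in complex III, 1 of 5 higher and 1 lower in complex IV, and 2 of 10 were lower in ATP synthase. With median-ratio scaling complex I had 2 higher and 4 lower. Not caught by the list's patterns were N19M (AGABI2DRAFT_134847), by its symbol a complex I subunit, with 51.04 and 44.97 FPKM in 245 AMA-7 and 67.96 and 65.6 FPKM in A15 (-0.47 ± 0.15, adjusted p = 0.0249), and OSCP/ATP5 (AGABI2DRAFT_135814), named for the stalk subunit of ATP synthase, with 164 and 159 FPKM in 245 AMA-7 and 197 and 203 FPKM in A15 (-0.31 ± 0.08, adjusted p = 0.0118). Both calls were lost when certain single libraries were left out, with an adjusted p of up to 0.153 for N19M and 0.0732 for OSCP/ATP5.

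The lower members included COX5B (AGABI2DRAFT_184110), in yeast a subunit of cytochrome c oxidase, with 95.6 and 94.3 FPKM in 245 AMA-7, against 179 and 167 FPKM in A15. Its difference of -0.86 ± 0.11 (adjusted p = 9.56e-05) was the largest of the 49 genes. INH1 (AGABI2DRAFT_121801), in yeast the inhibitor protein of the mitochondrial ATPase, had 153 and 139.9 FPKM in 245 AMA-7 and 247 and 248 FPKM in A15 (-0.75 ± 0.11, adjusted p = 0.000192). ATP20 (AGABI2DRAFT_194020), in yeast a small subunit linked to ATP synthase dimers, had 97.9 and 98.6 FPKM in 245 AMA-7 and 161 and 160.4 FPKM in A15 (-0.71 ± 0.08, adjusted p = 4.69e-05). The duplicates of these 3 genes lay close together in both strains.

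The genes of the catalytic core of ATP synthase did not pass. ATP1 (AGABI2DRAFT_193168), the alpha subunit, had 627 and 624 FPKM in 245 AMA-7 and 620.3 and 569 FPKM in A15, a difference of 0.07 ± 0.10 (adjusted p = 0.581). ATP2 (AGABI2DRAFT_190409), the beta subunit, had 858 and 882 FPKM in 245 AMA-7 and 879.9 and 834 FPKM in A15, a difference of 0.02 ± 0.10 (adjusted p = 0.883). In both genes the libraries of the strains overlapped or lay within about 1 SE of each other.

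Genes placed in complex I by symbol alone differed by small steps in both directions. NdufA4 (AGABI2DRAFT_202899) was lower, with a difference of -0.57 ± 0.09 (adjusted p = 0.000496) and 107 and 102 FPKM in 245 AMA-7 and 163 and 149 FPKM in A15. NdufA8 (AGABI2DRAFT_195695) was higher by 0.44 ± 0.09 (adjusted p = 0.00299), with 73.7 and 71.7 FPKM in 245 AMA-7 and 50.2 and 56.3 FPKM in A15, and NdufB9 (AGABI2DRAFT_139429) was higher by 0.47 ± 0.11 (adjusted p = 0.00624), with 61.9 and 58.5 FPKM in 245 AMA-7 and 40.5 and 45.7 FPKM in A15. Several of these calls rest on single libraries. NdufB9 gave an adjusted p of 0.0515 without replicate 1 of A15, and NdufB7, NUXM, NUZM, QCR9, RIP1 and COX6A lost the call on leaving out at least 1 of the 4 libraries. The highest adjusted p in those fits was 0.161 for NdufB7, 0.156 for NUXM, 0.191 for NUZM, 0.0819 for QCR9, 0.15 for RIP1 and 0.206 for COX6A. The difference of COX6A was 0.34 ± 0.11 (adjusted p = 0.0243), or 0.22 without replicate 2 of A15.

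Carriers beside the main complexes were higher where they passed. NDE1 (AGABI2DRAFT_226574), named for an external NADH dehydrogenase that feeds electrons to the chain without pumping protons, had 87.1 and 90.8 FPKM in 245 AMA-7, against 55.1 and 49.8 FPKM in A15 (0.75 ± 0.09, adjusted p = 4.4e-05). Its relative NDE2 (AGABI2DRAFT_227697) had 71.8 and 75.5 FPKM in 245 AMA-7 and 84.6 and 77.1 FPKM in A15 (adjusted p = 0.399), and the alternative oxidase gene AOX (AGABI2DRAFT_152135) 56.7 and 62.8 FPKM in 245 AMA-7 and 49.9 and 57.9 FPKM in A15 (adjusted p = 0.834), so that 1 of 3 genes of this list passed. CytC2 (AGABI2DRAFT_135048), named for cytochrome c, the carrier between complexes III and IV, stood at 1492 and 1512 FPKM in 245 AMA-7 and 1008 and 1161 FPKM in A15 (0.47 ± 0.11, adjusted p = 0.00417). Both NDE1 and CytC2 were higher in each library of 245 AMA-7 than in each of A15. Against the mean of 219 30P and 065 BP-8 on day 27, CytC2 of 245 AMA-7 did not pass (limma, -0.07 ± 0.09, adjusted p = 0.555).

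**Figure D3:**
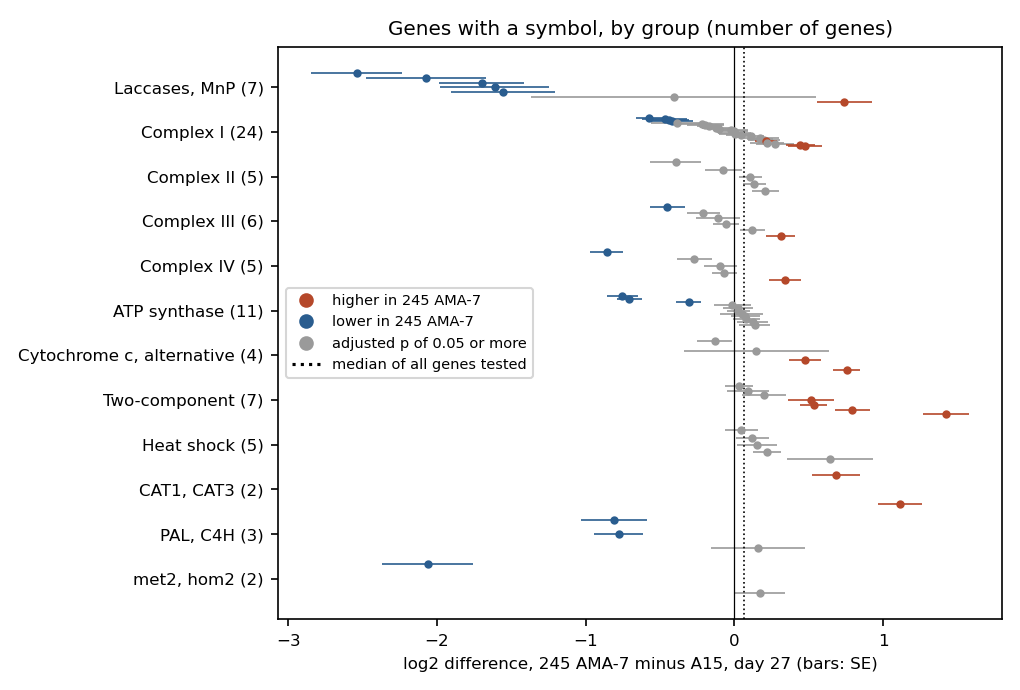
Log2 difference of 245 AMA-7 minus A15 on day 27 for genes with a symbol, 1 row per group, with SE bars; the number of genes stands beside each group and takes in N19M, OSCP/ATP5 and Hpt, which the list counts leave out. The dotted line marks the median of all genes tested, 0.06. The laccases and MnP reach the lowest values, respiratory genes cluster near 0, and the points of two-component signalling that passed lie on the higher side.

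Two-component signalling genes were on the higher side where they passed. In these pathways a histidine kinase senses a stress or signal and passes a phosphate through a phosphotransfer protein to response regulators, which in fungi act on osmotic and oxidative stress responses. Of 6 genes found by symbol 3 were higher, where 22.3% of all genes were, and none was lower, with a median of 0.36 against 0.06 over all genes, and these counts were the same under both other scalings. STK/HK (AGABI2DRAFT_114317), by its symbol a kinase with serine/threonine and histidine kinase parts, had 13.1 and 12.3 FPKM in 245 AMA-7, against 4.17 and 4.04 FPKM in A15, a 2.68-fold difference (1.42 ± 0.15, adjusted p = 2.43e-05). Tco6 (AGABI2DRAFT_201390), a histidine kinase by its symbol, had 36.8 and 35.03 FPKM in 245 AMA-7 and 22.1 and 18.7 FPKM in A15 (0.79 ± 0.12, adjusted p = 0.000295). SKN7 (AGABI2DRAFT_198669), in yeast a response regulator of the oxidative stress response, had 169.99 and 149.8 FPKM in 245 AMA-7 and 107 and 116 FPKM in A15 (0.51 ± 0.16, adjusted p = 0.0207).

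The kinases Tco1 and Tco5 and the response regulator SSK1, which in yeast acts ahead of the osmotic stress kinase cascade, did not pass. Their values were 35.4 and 37.6 FPKM in 245 AMA-7 and 35.97 and 35.6 FPKM in A15 for Tco1 (AGABI2DRAFT_228355), 10.1 and 10.2 FPKM in 245 AMA-7 and 8.92 and 8.58 FPKM in A15 for Tco5 (AGABI2DRAFT_143539), and 57.6 and 69.2 FPKM in 245 AMA-7 and 60.1 and 58.3 FPKM in A15 for SSK1 (AGABI2DRAFT_149788). The SKN7 call depended on single libraries, with adjusted p = 0.128 without replicate 1 of 245 AMA-7, 0.101 without replicate 1 of A15 and 0.0528 without replicate 2 of A15. The phosphotransfer gene Hpt (AGABI2DRAFT_224131), which the list's patterns did not catch, had 46.7 and 42.2 FPKM in 245 AMA-7 and 31.4 and 29.4 FPKM in A15 (0.53 ± 0.09, adjusted p = 0.000763). RIM15 (AGABI2DRAFT_116951), in yeast a protein kinase of nutrient signalling and entry into quiescence, had 40.1 and 42.2 FPKM in 245 AMA-7 and 25.3 and 24.3 FPKM in A15 (0.71 ± 0.15, adjusted p = 0.00273).

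CAT1 and CAT3, whose symbols are those of catalases, enzymes that break down hydrogen peroxide, were both higher. CAT3 (AGABI2DRAFT_200291) had 9.37 and 10.7 FPKM in 245 AMA-7, against 3.83 and 4.37 FPKM in A15 (1.11 ± 0.15, adjusted p = 0.000131). CAT1 (AGABI2DRAFT_115586) was low in both strains, with 3.21 and 3.03 FPKM in 245 AMA-7 and 1.72 and 1.42 FPKM in A15 (0.68 ± 0.16, adjusted p = 0.00589). Heat shock genes gave no call, with 0 of 5 passing (limma), where 39.6% of all genes did. Their median was 0.15, against 0.06 over all genes. The most abundant of them, hspB (AGABI2DRAFT_133986), had 10221 and 10073 FPKM in 245 AMA-7 and 6722 and 6301 FPKM in A15, without overlap, and its difference of 0.64 ± 0.29 missed the threshold (adjusted p = 0.0967, unadjusted p = 0.0463). The gene hspC missed it too (limma, adjusted p = 0.0776, unadjusted p = 0.0349). When only the 4 libraries compared were in the fit, hspB passed (limma, adjusted p = 0.0236). In the main fit its spread also took in duplicates of other groups, such as 896 and 2092 FPKM in 065 BP-8 on day 27.

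Mushroom tissue in the samples was checked with abl (AGABI2DRAFT_194888), the lectin gene of the fruiting body and the single gene found by the list of lectin, hydrophobin and fruiting-body symbols. It stood at 22.1 and 21.3 FPKM in 245 AMA-7 and 30.4 and 23.2 FPKM in A15 (adjusted p = 0.567). The marker was thus detected at a low level in both strains, the lowest A15 value lay just above the 245 AMA-7 values, and no difference was called. In 219 30P abl had 4.4 and 3.67 FPKM on day 27 and 3.87 and 2.6 FPKM on day 39. In 065 BP-8 it had 4.53 and 8.92 FPKM on day 27 and 207 and 264 FPKM on day 39. Its level thus did not rise at the first flush in every strain, and abl alone cannot settle how much mushroom tissue the samples held.

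The largest rises were in genes without a symbol, and their function is not given in the sources used here. AGABI2DRAFT_194809 led, with 297 and 228 FPKM in 245 AMA-7, against 0.62 and 0.67 FPKM in A15 (7.31 ± 0.20, adjusted p = 3.98e-10), a 159-fold difference on the scale used. It was as low in the other strains as in A15, with 0.50 and 0.96 FPKM in 219 30P and 0.86 and 1.0 FPKM in 065 BP-8, and the contrast of 245 AMA-7 with their mean was 7.17 ± 0.18 (adjusted p = 1.3e-10). A like pattern across strains was seen in AGABI2DRAFT_119762, with 44.8 and 45.4 FPKM in 245 AMA-7, 2.35 and 2.16 FPKM in 219 30P, 0.67 and 1.21 FPKM in 065 BP-8 and 1.93 and 0.89 FPKM in A15 (4.20 ± 0.19 against the mean of 219 30P and 065 BP-8, adjusted p = 3.19e-08).

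By contrast, AGABI2DRAFT_139707 was at like levels in 3 strains. It had 66.7 and 55.3 FPKM in 245 AMA-7, 51.6 and 50.9 FPKM in 219 30P, 54.8 and 45.7 FPKM in 065 BP-8 and 1.34 and 3.27 FPKM in A15, a difference of 4.29 ± 0.24 from A15 (adjusted p = 1.17e-07) and of 0.26 ± 0.21 from the mean of 219 30P and 065 BP-8 (adjusted p = 0.323). AGABI2DRAFT_64306 had 25.1 and 22.9 FPKM in 245 AMA-7 and 0.45 and 1.22 FPKM in A15 (3.80 ± 0.24, adjusted p = 3e-07), and its 10.97 and 12.8 FPKM in 219 30P and 10.8 and 12.6 FPKM in 065 BP-8 lay between. The 10 largest rises also held AGABI2DRAFT_179729, with 34.5 and 27.8 FPKM in 245 AMA-7 and 2.27 and 2.66 FPKM in A15 (3.21 ± 0.14, adjusted p = 1.3e-08), AGABI2DRAFT_143356 (3.17 ± 0.25, adjusted p = 1.68e-06) and AGABI2DRAFT_176277 (3.04 ± 0.18, adjusted p = 2.34e-07). Each of these 3 also passed as higher in 245 AMA-7 than in the mean of 219 30P and 065 BP-8, by 2.40 ± 0.12, 1.98 ± 0.21 and 2.45 ± 0.16 in the same order.

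Among the largest falls, AGABI2DRAFT_122271 had 7.31 and 8.79 FPKM in 245 AMA-7, against 399.8 and 327 FPKM in A15 (-5.33 ± 0.23, adjusted p = 1.22e-08). It stood at 19.9 and 15.7 FPKM in 219 30P and 122 and 104 FPKM in 065 BP-8, both above 245 AMA-7. AGABI2DRAFT_183756 had 3.32 and 3.05 FPKM in 245 AMA-7, 30.1 and 36.5 FPKM in 219 30P, 157 and 104 FPKM in 065 BP-8 and 113 and 111 FPKM in A15, so that 245 AMA-7 was the lowest of the 4 strains (-3.99 ± 0.20 against the mean of 219 30P and 065 BP-8, adjusted p = 5.5e-08). AGABI2DRAFT_122258 likewise had 2.03 and 2.38 FPKM in 245 AMA-7, 32.5 and 37.1 FPKM in 219 30P, 17.01 and 30.4 FPKM in 065 BP-8 and 78.7 and 105 FPKM in A15 (-3.19 ± 0.23, adjusted p = 6.14e-07). In AGABI2DRAFT_195218 the 245 AMA-7 libraries, at 2.25 and 0.49 FPKM, stood beside 6.58 and 4.41 FPKM in 219 30P and 0.75 and 0.97 FPKM in 065 BP-8, all far under A15 with 63 and 98.7 FPKM (-5.18 ± 0.36 against A15, adjusted p = 7.09e-07).

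A set of genes reached 10 FPKM or more in A15 and lay at or near 0 in 245 AMA-7. Whether these genes are present in the DNA of each strain, and whether their reads could be mapped, was not tested. With both 245 AMA-7 libraries under 0.5 FPKM and both A15 libraries at 10 FPKM or more there were 14 genes, against 1 gene the other way round. The A15 files list no gene that is at 0 throughout A15, so genes silent in A15 may be left out of the comparison. Of the 918 genes not in those files, 1 was at 10 FPKM or more in both 245 AMA-7 libraries, so that counting unlisted genes as near 0 in A15 would give 2 genes in place of 1. The levels in the other strains split the 14 genes. In 7 of them every one of the 12 libraries of the other 3 strains, on both days, lay at or under 0.36 FPKM, while no A15 library was under 13.74 FPKM. A further 3 were at 10 FPKM or more in both 219 30P libraries of day 27, 2 were so in both 065 BP-8 libraries of that day, and the other 2 met none of these limits.

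The 7 genes near 0 outside A15 include 2 pairs of neighbours. AGABI2DRAFT_205353, with 0.16 and 0 FPKM in 245 AMA-7 and 60.2 and 81.05 FPKM in A15 (-6.04 ± 0.20, adjusted p = 9.58e-10), lies beside AGABI2DRAFT_58702, which was listed at 0 in both 245 AMA-7 libraries and had 15.5 and 21.8 FPKM in A15. AGABI2DRAFT_180318, with 0.23 and 0 FPKM in 245 AMA-7 and 58.7 and 64.8 FPKM in A15 (-5.82 ± 0.19, adjusted p = 9.14e-10), lies beside AGABI2DRAFT_121073, with 0.27 and 0 FPKM in 245 AMA-7 and 58.1 and 65.99 FPKM in A15 (-5.80 ± 0.17, adjusted p = 5.48e-10). In the second pair both genes had similar levels in A15. AGABI2DRAFT_122821 was listed at 0 in both 245 AMA-7 libraries and had 63.6 and 59.8 FPKM in A15, AGABI2DRAFT_194706 was at 0 in both and had 16.4 and 15.1 FPKM in A15, and AGABI2DRAFT_72336 was at 0 in both and had 15.4 and 14.5 FPKM in A15.

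Other genes of the set also reached 10 FPKM or more in a strain whose files have the same layout as those of 245 AMA-7. AGABI2DRAFT_136996 had 0.36 and 0.19 FPKM in 245 AMA-7, 41.2 and 45.3 FPKM in 219 30P, 0 and 0.18 FPKM in 065 BP-8 and 43.04 and 36.5 FPKM in A15. AGABI2DRAFT_139759 had 0.37 and 0.39 FPKM in 245 AMA-7, 50.6 and 52.2 FPKM in 219 30P, 0 and 0.13 FPKM in 065 BP-8 and 19.9 and 22.1 FPKM in A15. Both were thus on in 219 30P and A15 and near 0 in 245 AMA-7 and 065 BP-8. AGABI2DRAFT_144407 had 0 and 0.07 FPKM in 245 AMA-7, 16 and 13.4 FPKM in 065 BP-8 and 11.4 and 11.2 FPKM in A15, and was listed at 0 in both 219 30P libraries.

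The single gene at 10 FPKM or more in 245 AMA-7 and near 0 in A15 was AGABI2DRAFT_209340. It had 12.3 and 12.1 FPKM in 245 AMA-7, 10.5 and 11.8 FPKM in 219 30P, 17.7 and 18.7 FPKM in 065 BP-8 and 0.10 and 0 FPKM in A15, a difference of 3.66 ± 0.15 from A15 (adjusted p = 9.52e-09). Here A15 stood apart from the other 3 strains, and 245 AMA-7 did not differ from the mean of 219 30P and 065 BP-8 beyond the error (-0.21 ± 0.13, adjusted p = 0.21).

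Neighbouring genes in part changed together. Of 1008 genes that passed with at least 2-fold and could be placed in the reference order, 294 (29.2%) had a tested neighbour called 2-fold in the same direction, 28.0% of those higher and 30.1% of those lower. Of all 8759 genes placed, called or not, 9.77% had a neighbour called higher and 11.8% a neighbour called lower at this size, beside the 5.16% and 6.35% of single genes given above. There were 6 runs of 4 or more such neighbours, 5 higher and 1 lower in 245 AMA-7, with 26 genes in all and 6 in the longest. Reads shared between related neighbours could link their values, and the counting rule is not stated.

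The longest run, higher in 245 AMA-7, held AGABI2DRAFT_44732, AGABI2DRAFT_205695, AGABI2DRAFT_136705, AGABI2DRAFT_193177, AGABI2DRAFT_136707 and AGABI2DRAFT_71267, with differences of 1.15 ± 0.21 to 1.72 ± 0.19. AGABI2DRAFT_71267 had 97.4 and 109 FPKM in 245 AMA-7 and 30.7 and 30.7 FPKM in A15, and AGABI2DRAFT_193177 83.2 and 80.4 FPKM in 245 AMA-7 and 31.8 and 36.3 FPKM in A15. All 6 genes also passed as higher in 245 AMA-7 than in the mean of 219 30P and 065 BP-8, by 0.80 ± 0.18 for AGABI2DRAFT_136707 up to 2.82 ± 0.20 for AGABI2DRAFT_193177.

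The second run had the steepest differences. AGABI2DRAFT_67577 had 91.6 and 96.9 FPKM in 245 AMA-7, against 0.71 and 1.55 FPKM in A15 (5.51 ± 0.57, adjusted p = 1.57e-05), and its neighbour AGABI2DRAFT_56255 54.95 and 57.2 FPKM in 245 AMA-7, against 2.31 and 1.08 FPKM in A15 (4.44 ± 0.45, adjusted p = 1.38e-05). Both were low in the other strains, with 0.77 and 0 FPKM in 219 30P and 8.74 and 3.85 FPKM in 065 BP-8 for AGABI2DRAFT_67577. AGABI2DRAFT_56609, in the same run, had 232 and 259 FPKM in 245 AMA-7, 113 and 96.3 FPKM in 219 30P, 0 and 0.90 FPKM in 065 BP-8 and 43.98 and 49.8 FPKM in A15, and AGABI2DRAFT_56520 138 and 146 FPKM in 245 AMA-7, 71.99 and 57.95 FPKM in 219 30P, 2.63 and 0.42 FPKM in 065 BP-8 and 30.9 and 33.3 FPKM in A15. These genes were thus highest in 245 AMA-7, and 219 30P and A15 had lower but clear levels in the first part of the run only.

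The run that was lower held AGABI2DRAFT_191400, AGABI2DRAFT_134872, AGABI2DRAFT_191403 and AGABI2DRAFT_191401. AGABI2DRAFT_191400 had 2.48 and 2.4 FPKM in 245 AMA-7, 2.43 and 2.49 FPKM in 219 30P, 32.05 and 39.2 FPKM in 065 BP-8 and 68.6 and 68.8 FPKM in A15. Its difference from A15 was -4.34 ± 0.12 (adjusted p = 3.98e-10), the largest of the run, and that of AGABI2DRAFT_134872, with 7.81 and 8.13 FPKM in 245 AMA-7 and 41.5 and 38.6 FPKM in A15, was the smallest at -2.19 ± 0.12. Over the run, mean levels of 245 AMA-7 and 219 30P were low together, and those of 065 BP-8 and A15 were higher together.

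**Figure D4:**
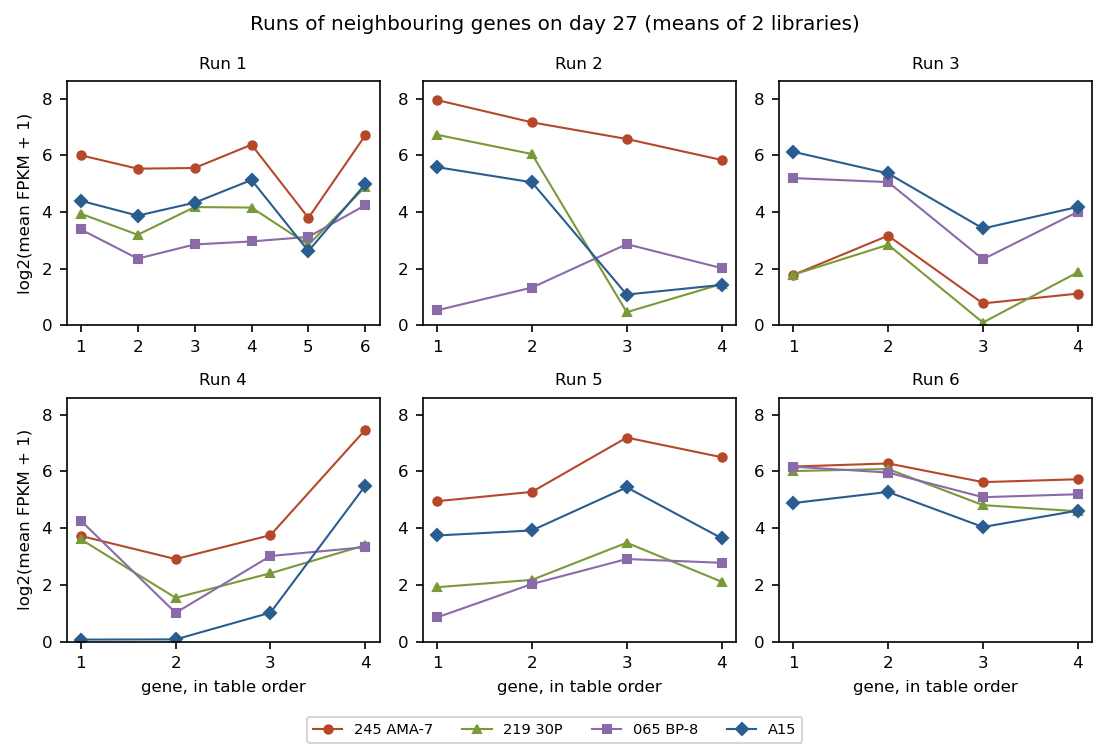
Levels on day 27 in the 6 runs of neighbouring genes that passed with at least 2-fold in the same direction. The x axis numbers the genes in the order of the reference table and the y axis gives log2 of the mean FPKM of 2 libraries plus 1, with 1 line per strain. In run 1 and run 5 the line of 245 AMA-7 lies above those of the other 3 strains throughout, in run 2 its distance from 219 30P and A15 widens at the third gene, and in run 3 it follows 219 30P under 065 BP-8 and A15.

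The most abundant transcripts differed by less than 2-fold. AGABI2DRAFT_136569 had 17596 and 19329.7 FPKM in 245 AMA-7 and 28956 and 27445 FPKM in A15, a difference of -0.61 ± 0.18 (adjusted p = 0.0198) that no longer passed on leaving out any of the 4 libraries (adjusted p of 0.0571 to 0.114). AGABI2DRAFT_136557 had 17519 and 20106 FPKM in 245 AMA-7 and 27657 and 26939 FPKM in A15 (adjusted p = 0.0863), and AGABI2DRAFT_193057 17861 and 19213 FPKM in 245 AMA-7 and 23136 and 23842 FPKM in A15 (adjusted p = 0.251). The libraries of the strains did not overlap in any of these 3, while AGABI2DRAFT_71560, at 13057 and 14207 FPKM in 245 AMA-7 and 13996 and 14305 FPKM in A15, overlapped. AGABI2DRAFT_75975, among the 5 most abundant of A15, had 9564 and 10335 FPKM in 245 AMA-7 and 12787 and 7809 FPKM in A15. The gene hspB, described above, was among the 5 most abundant of 245 AMA-7. Outside the quartiles of all genes, -0.28 and 0.37, lay AGABI2DRAFT_136569 (-0.61), AGABI2DRAFT_136557 (-0.54), AGABI2DRAFT_193057 (-0.34) and hspB (0.64). Within them lay AGABI2DRAFT_71560 (-0.06) and AGABI2DRAFT_75975 (-0.01).

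Whether the strain difference at pinning also held at the first flush was tested as the difference of day 27 less that of day 39. It passed in 2710 of 8818 genes (30.7%), with 1659 positive and 1051 negative values. The split depended on scaling, being 61.2% positive on the deposited scale, 52.5% after median-ratio scaling and 48.2% after quantile normalization, which shifts the median of all genes by -0.11. The laccases parted into pairs. For lcc1 the strains stood further apart at the first flush, with 12.9 and 14.7 FPKM in 245 AMA-7 and 740.4 and 625 FPKM in A15 on day 39, and the change of the difference was 3.46 ± 0.57 (adjusted p = 0.000936). For lcc2 the day 39 values were 161 and 151 FPKM in 245 AMA-7 and 1639.9 and 1832 FPKM in A15, a change of 1.86 ± 0.52 (adjusted p = 0.0175).

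The neighbours lcc9 and lcc10 went the other way. On day 39 lcc9 had 315 and 344 FPKM in 245 AMA-7 and 269.9 and 282 FPKM in A15. Both 245 AMA-7 libraries lay above both A15 libraries, but the day 39 difference of 0.25 ± 0.31 did not pass (limma, adjusted p = 0.51). The change of the difference was -2.79 ± 0.43 (adjusted p = 0.000639). For lcc10, 43.3 and 43.8 FPKM in 245 AMA-7 on day 39 lay above 21.4 and 23.8 FPKM in A15. This day 39 difference of 0.92 ± 0.29 passed (limma, adjusted p = 0.0173), and the change of the difference was -2.62 ± 0.41 (adjusted p = 0.000632). MnP had 13.1 and 12.01 FPKM in 245 AMA-7 and 27.6 and 38.9 FPKM in A15 on day 39, and its change of the difference, -0.24 ± 0.49, did not pass (adjusted p = 0.753). The difference in met2 was larger on day 39, with 0.60 and 1.23 FPKM in 245 AMA-7 and 24.2 and 39.9 FPKM in A15 (2.02 ± 0.43, adjusted p = 0.00414).

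Lower at pinning, but with higher values at the first flush, were Fet3, with 184 and 173 FPKM in 245 AMA-7 and 96.8 and 70.3 FPKM in A15 on day 39 (-1.84 ± 0.23, adjusted p = 0.000148), and PAL1, with 649 and 764 FPKM in 245 AMA-7 and 408 and 604 FPKM in A15 (-1.28 ± 0.23, adjusted p = 0.00167). Tco5, not called at pinning, had 82.2 and 77.5 FPKM in 245 AMA-7 and 27.3 and 24.7 FPKM in A15 on day 39 (-1.38 ± 0.21, adjusted p = 0.000559). The marker abl had 27.9 and 51.6 FPKM in 245 AMA-7 and 218 and 108 FPKM in A15 on day 39 (1.70 ± 0.51, adjusted p = 0.024). The part of mushroom tissue in the differences of day 39 was not tested.

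Without a symbol, AGABI2DRAFT_226703 and AGABI2DRAFT_192993 were among the genes with the smallest p-values of this test. AGABI2DRAFT_226703 had 182 and 197 FPKM in 245 AMA-7, against 376 and 444 FPKM in A15 on day 27, and 5016 and 5805 FPKM in 245 AMA-7, against 646 and 813 FPKM in A15 on day 39 (-4.0 ± 0.26, adjusted p = 2.8e-06). AGABI2DRAFT_192993 had 17.2 and 14.1 FPKM in 245 AMA-7, against 2.68 and 3.97 FPKM in A15 on day 27, and 17.8 and 19.3 FPKM in 245 AMA-7, against 469 and 323 FPKM in A15 on day 39 (6.27 ± 0.38, adjusted p = 2.1e-06). The direction of the strain difference thus turned between the stages in both genes, in opposite senses. AGABI2DRAFT_114324 stood higher in 245 AMA-7 at pinning and lower at the first flush, with 263 and 223 FPKM in 245 AMA-7, 4.86 and 6.86 FPKM in 219 30P, 11.3 and 14.8 FPKM in 065 BP-8 and 77.7 and 75.3 FPKM in A15 on day 27, and 13.3 and 14 FPKM in 245 AMA-7, against 53.6 and 59.9 FPKM in A15 on day 39 (3.63 ± 0.22, adjusted p = 2.1e-06).

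**Figure D5:**
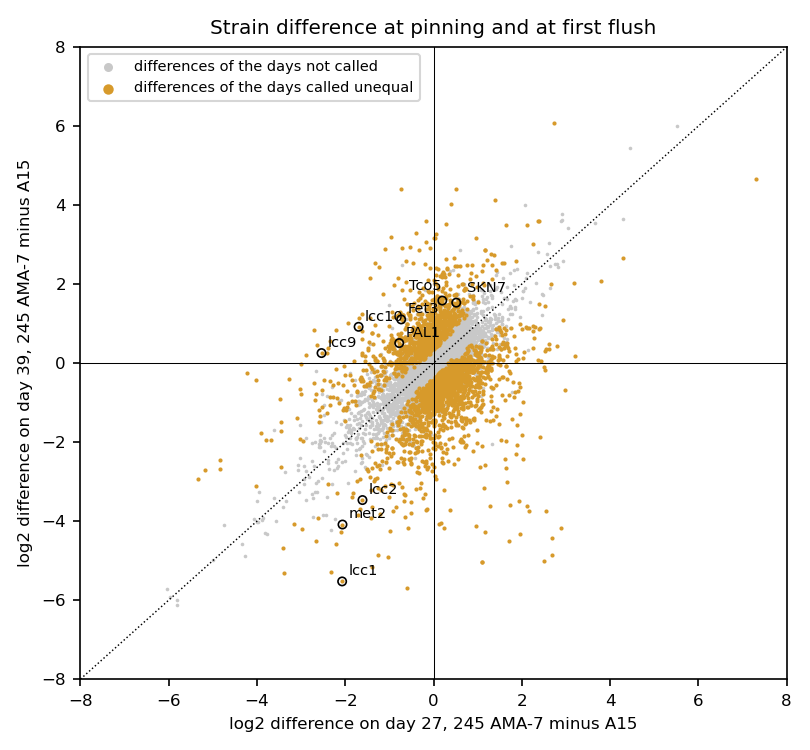
Each point is 1 of the 8818 genes tested, with the log2 difference of 245 AMA-7 minus A15 on day 27 on the x axis and on day 39 on the y axis. The dotted line marks equal differences, and the 2710 genes in orange passed the test of unequal differences. The genes lcc1, lcc2 and met2 lie under the line, and lcc9, lcc10, Fet3, PAL1, Tco5 and SKN7 lie above it.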

How the data were processed

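RNA of compost colonised by mycelium was extracted as total RNA by caesium chloride gradient and sequenced with standard Illumina libraries, per the labels' protocols. Groups were strain and sampling day, taken from the sample titles, with 2 libraries each. The authors deposited 1 value per gene and library, taken here as FPKM. This unit was inferred, as values have 2 decimals and library sums are unequal and lie between 832823 and 913010. BWA, Bowtie and RSEM are named in the submitters' processing notes. Which step each served, its version and the build were not given in the sources used here.

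Of the 9520 identifiers listed for every strain, 9457 matched locus tags of a RefSeq gene table, which gave 88 symbols and the gene order, and the 918 genes not in the A15 files were not tested. Tests used log2(FPKM + 1) for the 8818 genes averaging at least 1 FPKM, in limma 3.58.1 under R 4.3.3 (trend, all 16 libraries, 8 group means, 8 residual degrees of freedom), with Benjamini-Hochberg adjustment and a threshold of 0.05. Tables and plots were made in Python 3.11.15 (numpy 2.4.6, pandas 2.3.3, matplotlib 3.10.9). The fits were tested on simulated data. FPKM values limit precision, as read counts are not given.

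Some named genes had to pass, reach 10 FPKM in the higher strain and show no overlap. These were the 10 largest differences each way, the 10 largest each way among symbols and the 5 smallest p-values each way of the test between days. Not held to these conditions were up to 6 genes near 0 in one strain, the members of the 3 longest runs of neighbours and the 5 most abundant genes of each strain. Up to 4 members per list were named, also where they did not pass, and further symbols were described beyond the rule. Lists were made by symbol (21 lists, 4 without a member: plant cell wall enzymes, proteases, sugar alcohol and central carbon, nitrogen), and lists by protein signature were not used here. The members and lists were chosen with earlier results of these data known. Alternatives were other pseudocounts, filters, scalings, spreads and a replicate block, and leaving out each library. Replicate numbers were not treated as pairs, since no label ties them (correlations of deviations of -0.272 to 0.167 over 28 group pairs).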

Additional observations from a re-analysis of the deposited data

Results flagged for a closer look

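Differences between 245 AMA-7 and A15 that were unequal on the 2 days, by the test of day 27 less day 39 in limma with adjusted p under 0.05, are given here as log2 values ± SE. A negative value means that 245 AMA-7 stood lower relative to A15 at pinning than at the first flush. Among laccases and their neighbours these were lcc9 (-2.79 ± 0.43), lcc10 (-2.62 ± 0.41), AGABI2DRAFT_194715 (-2.16 ± 0.59), lcc1 (3.46 ± 0.57), lcc2 (1.86 ± 0.52) and AGABI2DRAFT_211295 (2.13 ± 0.54). The first 3, side by side, were all negative and the other 3, side by side, all positive. Among other metabolic genes they were met2 (2.02 ± 0.43), PAL1 (-1.28 ± 0.23) and Fet3 (-1.84 ± 0.23). Among genes of respiration they were INH1 (-0.63 ± 0.15), ATP20 (-0.38 ± 0.12), NDE2 (-0.55 ± 0.17) and CytC2 (0.60 ± 0.15). Among signalling genes they were Tco5 (-1.38 ± 0.21), SKN7 (-1.02 ± 0.22), SSK1 (-0.86 ± 0.20), STK/HK (0.95 ± 0.22) and Hpt (0.47 ± 0.13). The lectin gene abl gave 1.70 ± 0.51.

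Among genes without a symbol, negative values were found for AGABI2DRAFT_122271 (-2.40 ± 0.33), AGABI2DRAFT_195218 (-2.47 ± 0.51), AGABI2DRAFT_122258 (-2.39 ± 0.37), AGABI2DRAFT_226703 (-4.0 ± 0.26), AGABI2DRAFT_56520 (-1.37 ± 0.43) and AGABI2DRAFT_56609 (-1.22 ± 0.33). Positive values were found for AGABI2DRAFT_134872 (1.09 ± 0.17), AGABI2DRAFT_193057 (1.12 ± 0.32), AGABI2DRAFT_71560 (1.07 ± 0.31), AGABI2DRAFT_136707 (4.32 ± 0.30), AGABI2DRAFT_44732 (1.15 ± 0.31), AGABI2DRAFT_71267 (2.53 ± 0.27), AGABI2DRAFT_114324 (3.63 ± 0.22), AGABI2DRAFT_192993 (6.27 ± 0.38), AGABI2DRAFT_179729 (3.03 ± 0.20), AGABI2DRAFT_143356 (1.14 ± 0.35), AGABI2DRAFT_64306 (1.73 ± 0.33), AGABI2DRAFT_119762 (1.64 ± 0.32) and AGABI2DRAFT_194809 (2.65 ± 0.29). In AGABI2DRAFT_136707 the strains stood at 42.4 and 50.5 FPKM in 245 AMA-7 and 457 and 396 FPKM in A15 on day 39, the reverse of day 27.

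Signal in 245 AMA-7 was also seen in genes that the comparison could not use because the A15 files do not list them. Of these 918 genes 840 were at 0 in both 245 AMA-7 libraries of day 27 and 12 were at 1 FPKM or more in both. The mean day 27 levels in 245 AMA-7 were 29.5 FPKM for AGABI2DRAFT_58707, 8.29 FPKM for AGABI2DRAFT_74845, 7.96 FPKM for AGABI2DRAFT_69363, 7.75 FPKM for AGABI2DRAFT_74352, 4.0 FPKM for AGABI2DRAFT_116541, 3.27 FPKM for AGABI2DRAFT_46344 and 2.05 FPKM for AGABI2DRAFT_56625. None of these 7 reached 0.5 FPKM in any library of 219 30P or 065 BP-8 on either day. The other 5 were AGABI2DRAFT_123022 at 7.33 FPKM, AGABI2DRAFT_120388 at 2.63 FPKM, AGABI2DRAFT_120389 at 2.15 FPKM, AGABI2DRAFT_40448 at 2.06 FPKM and AGABI2DRAFT_192146 at 1.54 FPKM in 245 AMA-7, and each of them was also seen in another strain. Their levels in A15 were not analysed here.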

How the results depend on the processing

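The 3493 genes called on day 27 became 2396 to 2924 when 1 of the 4 libraries was left out, 2817 with only the 8 libraries of day 27 and 3044 with only the 4 libraries compared in the fit. They were 3488 and 3384 with pseudocounts of 0.1 and 5, 3536 without a filter and 3081 with a minimum of 5 FPKM. Median-ratio scaling gave 3498, of which 48.1% were higher, against 56.2% as deposited, and quantile normalization 3363, of which 55.1% were higher. With a pseudocount of 5, 587 genes were called with at least 2-fold on day 27, of which 585 were among the 1015 called as deposited, and 597 in the contrast with 219 30P and 065 BP-8, all among the 1092 called there, since it shrinks differences of low genes. The replicate block, with the replicate number in the fit, gave 3443 genes. With the A15 numbers crossed, a choice made after seeing the data because the correlation of deviations was -0.272, the block gave 3457. The test between days called 2071 to 2389 genes with 1 library of day 27 left out, against 2710, and 2631 with the replicate block. The contrast with 219 30P and 065 BP-8 called 3248 and 3298 genes without either 245 AMA-7 library, against 4517, and 4482 with the replicate block.

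Of 160 genes with values in these comparisons 103 passed, none reversed under any alternative run, and 18 lost the call when 1 library was left out. These included lcc2, lcc3, MnP, PAL2, SKN7, N19M, OSCP/ATP5, CIPB and several respiratory genes. The block changed the call of 1 gene. With 2 libraries a group and no read counts, small differences and values under about 1 FPKM are the least certain.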

Other observations

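Further neighbouring genes rose in 245 AMA-7 at pinning beyond those described above, and all genes of this paragraph and the next were chosen after their values were seen. A run of 4 genes higher in 245 AMA-7 opened with AGABI2DRAFT_209340 and went on to AGABI2DRAFT_75988, with 7.14 and 5.87 FPKM in 245 AMA-7 and 0.11 and 0 FPKM in A15, AGABI2DRAFT_75626, with 12.9 and 12.1 FPKM in 245 AMA-7 and 0.71 and 1.35 FPKM in A15, and AGABI2DRAFT_121022, with 186 and 165 FPKM in 245 AMA-7 and 41.3 and 47.01 FPKM in A15. Another run held AGABI2DRAFT_195005, AGABI2DRAFT_138613, AGABI2DRAFT_195007 and AGABI2DRAFT_145641. In it AGABI2DRAFT_195007 had 136 and 154 FPKM in 245 AMA-7, 8.94 and 11.4 FPKM in 219 30P, 3.81 and 9.22 FPKM in 065 BP-8 and 48.1 and 36.5 FPKM in A15, and AGABI2DRAFT_145641 84.9 and 93.9 FPKM in 245 AMA-7, 3.18 and 3.46 FPKM in 219 30P, 4.91 and 6.8 FPKM in 065 BP-8 and 14.8 and 8.2 FPKM in A15. The call of AGABI2DRAFT_195005 (1.27 ± 0.39) was lost without replicate 2 of 245 AMA-7 (1.04, adjusted p = 0.14) and without replicate 2 of A15 (0.79, adjusted p = 0.208).

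Some genes stood high in 245 AMA-7 at pinning and high in A15 at the first flush. AGABI2DRAFT_137828 had 54.1 and 41.4 FPKM in 245 AMA-7 and 3.27 and 9.0 FPKM in A15 on day 27, and 65.8 and 73.1 FPKM in 245 AMA-7 and 1343 and 1201 FPKM in A15 on day 39. AGABI2DRAFT_194696 had 29.8 and 21.8 FPKM in 245 AMA-7 and 2.57 and 3.69 FPKM in A15 on day 27, and 22.4 and 21.4 FPKM in 245 AMA-7 and 829 and 533 FPKM in A15 on day 39. For AGABI2DRAFT_122757 the day 27 values were 64.1 and 51.4 FPKM in 245 AMA-7 and 5.08 and 12.6 FPKM in A15, and the day 39 values 42.2 and 46.7 FPKM in 245 AMA-7 and 1074 and 885 FPKM in A15. The change of the difference passed in all 3 genes (limma, adjusted p = 2.67e-05, 0.000155 and 0.00013 in the same order). Higher values in 245 AMA-7 on both days were seen in AGABI2DRAFT_193820, with 1197 and 760.5 FPKM in 245 AMA-7 and 129.98 and 159 FPKM in A15 on day 27, and 3172 and 2973 FPKM in 245 AMA-7 and 43.9 and 45.5 FPKM in A15 on day 39, where the strains stood further apart at the first flush.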
